A study of Mus musculus with 27 samples.

Results

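Microglia without a functional cannabinoid receptor CB2 were compared before and after stimulation with LPS plus interferon-γ. The comparison rests on 6 of the 27 RNA-seq libraries of the study, 3 of stimulated and 3 of unstimulated CB2-/- cells, chosen by genotype and agent in the labels. All genes of the table were examined, and 14668 of 23995 genes, those with a normalised count of at least 10 in at least 3 of the 27 libraries, were tested. The CB2-/- cells came from neonatal mice of the strain B6.Cg-Cnr2tm1Zim, and the stimulated cells received LPS at 100 ng/ml together with interferon-γ at 20 ng/ml. The study's design text gives a stimulation of 16 h, whereas the protocol in the labels lists both 30 min and 16 h and assigns neither to a library, so the time rests on the design text. Wild-type C57BL/6J microglia under the same stimulus, and CB2-/- microglia treated with CpG (1 nmol/ml) or PolyI:C, 3 libraries each, served for comparison. Unstimulated wild-type cells were in 6 libraries. All cells were microglia shaken off mixed glial cultures of neonatal cortex freed of meninges and kept in serum-containing medium, not microglia isolated directly from brain. The labels do not give whether the 3 libraries of a group came from separate animals or cultures. The p-values therefore reflect the spread within the groups of all 27 libraries, fitted together, which may be technical.

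Microglia are the resident macrophages of the brain. LPS, a cell wall component of Gram-negative bacteria, is recognised by Toll-like receptor 4 (TLR4), which signals through the adaptors MyD88 and TRIF. These lead to NF-κB and to interferon regulatory factors (IRFs), and so to cytokines and type I interferon. Interferon-γ binds its own receptor and signals through the kinases JAK1 and JAK2 to genes that carry a DNA element called GAS. Type I interferons act through a complex that includes STAT2 and IRF9 and binds an element called ISRE. CB2, encoded by Cnr2, is a G protein-coupled receptor for endocannabinoids found mainly on immune cells. The study asked whether it takes part in microglial activation through Toll-like receptors.

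The 6 libraries held summed normalised counts of 6341299 to 9097058, with 15941 to 19396 genes above 0. If the smallest recurring step in a library's values is taken as 1 read, they held about 5810000 to 13500000 reads. Gm19220, Gm26822 and Grip2, singled out after their values were seen, together took 1.57, 0.0741 and 20.3% of the summed values in the unstimulated libraries and 1.08, 16.4 and 14.0% in the stimulated ones. Unstimulated replicate 3 and stimulated replicates 2 and 3 therefore stand apart, and each leading count is given with and without them. Leaving them out keeps 2 unstimulated libraries and 1 stimulated library of CB2-/- in a fit of 24. In that fit the lone stimulated library is assumed to vary as the libraries of the other groups do, wherever results without the libraries that stand apart are given. Of the other 21 libraries 3 also had over 10%, namely the second PolyI:C library of CB2-/- and unstimulated wild-type replicates 5 and 6, and a further fit left out all 6. Cnr2 was counted in all 6 libraries, at 317, 411 and 454 unstimulated and 217, 229 and 234 stimulated (log2 fold change -0.78 ± 0.54 (SE), limma adjusted p = 0.355, 0.00507 when only the 6 libraries were fitted); it sums over the gene and says nothing of the deleted part, so the genotype rests on the labels. Markers of the macrophage lineage were high in every library: Csf1r, the CSF1 receptor, stood at 11530, 12460 and 12780 unstimulated and 8687, 8675 and 9291 stimulated, and 0 of 12 lineage markers were under 10 in all 6 libraries.

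LPS with interferon-γ changed a large part of the transcriptome of CB2-/- microglia. By limma on log2(value + 1) with Benjamini-Hochberg adjustment, 3471 of 14668 genes passed an adjusted p of 0.05 (23.7%), 1879 of them higher (12.8% of genes tested) and 1592 lower (10.9%). Those 2 percentages, and the median log2 fold change of all tested genes of 0.03, are the background against which each gene list below is set. The rises reached further than the falls: 257 genes were called with a log2 fold change of at least 3 and 87 with one of at most -3, and 54 and 5 genes passed 5 and -5. Of the genes called higher 40 were listed at 0 in all 3 unstimulated libraries, and 11 of those called lower were listed at 0 in all 3 stimulated ones. The values of the groups did not overlap for 6916 genes (47.2% of those tested), among them 3451 of the 3471 called. Without unstimulated replicate 3 and stimulated replicates 2 and 3, 1458 genes were called, 855 higher and 603 lower, and 1455 of them were among the 3471, with 1 stimulated library and an error taken from the other groups. Without all 6 libraries over 10% the count was 1510, and Nos2 (4.57, adjusted p = 0.0507), Tmem119 (-2.65, adjusted p = 0.0757), Il10, Hgf and Fgf2 also lost their calls. With the same direction but no longer past the threshold in the first of these fits were, among genes named below by rule, S100a4, Acot1, Il4i1, Adamts4, Cd300e, Shisa3, Ifnb1, Ciita, P2ry12, Tlr5, Clec7a, Osm, Ppbp, Ifit1bl1, H2-Eb1, Ifi30, Pycard, C1s1, Serping1, Timd4, Csf1, Ch25h, Hspa1a, Hspa1b, Mki67, Bmp2, Camp, Ccr2, Apoe and B2m. Other list members named below, such as Il27, Il23a and Il1a, were not followed gene by gene in the alternatives. With every library scaled to an equal sum after leaving out Gm19220, Gm26822 and Grip2, the median of all genes moved to -0.20 and 32.7% of the called genes were higher, against 54.1% as deposited, so list directions near 0 are relative to that shift. In bulk RNA, fewer cells of a type and less RNA per cell cannot be told apart.

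**Figure D1:**
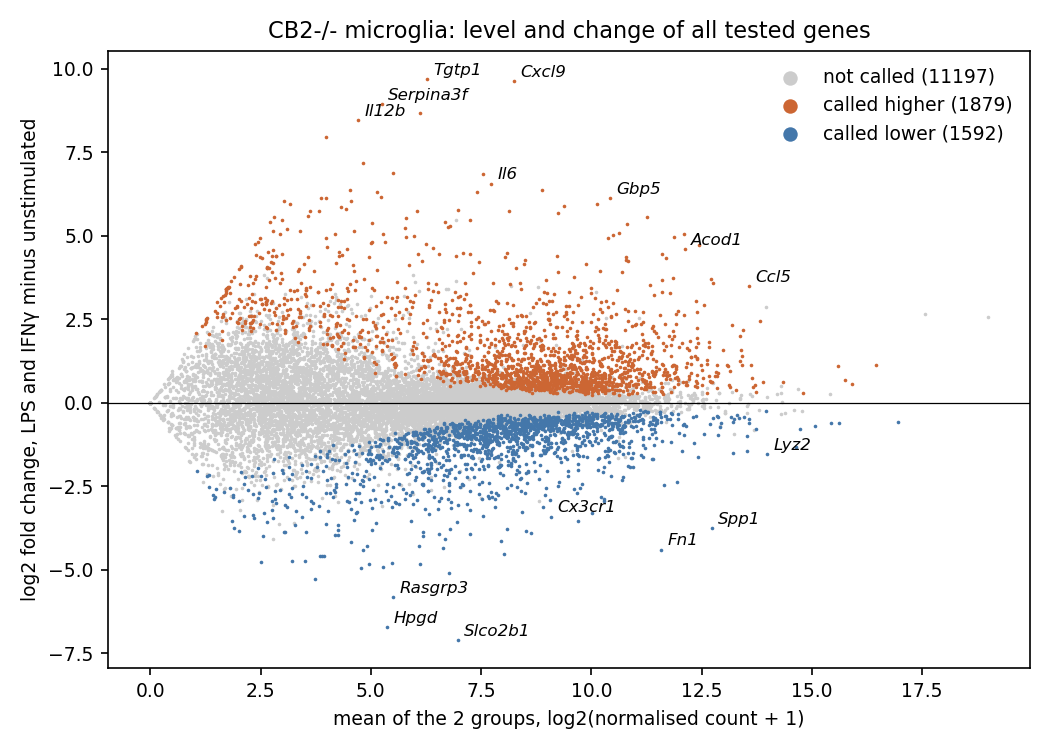
Log2 fold change (vertical axis) against mean level, log2(normalised count + 1) (horizontal axis), of the 14668 tested genes, 1 point per gene. Orange points are the 1879 genes called higher and blue points the 1592 called lower with LPS and interferon-γ; the named genes at the top reach 9.70 and those at the bottom -7.09.

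Of the 16 genes with the highest log2 fold changes, 3 were in the list of interferon-inducible GTPases, 3 in that of proinflammatory cytokines, 2 among the chemokines, 2 among the acute-phase proteins and antiproteases and 1 among the costimulatory molecules, and 5 were in no list. Because the regulatory elements of these pathways are known by their letters, the 250 bases before the start of 6 of the 16 are shown first, namely the 6 in which at least 1 of 3 motifs was found. Sequences are from RefSeq on GRCm38.p6, 5′ to 3′ on the gene's strand, for the first start listed per gene. Capitals mark GAS (TTCNNNGAA), a core of ISRE (GAAANNGAA) or a κB site, each searched on both strands.
Tgtp1: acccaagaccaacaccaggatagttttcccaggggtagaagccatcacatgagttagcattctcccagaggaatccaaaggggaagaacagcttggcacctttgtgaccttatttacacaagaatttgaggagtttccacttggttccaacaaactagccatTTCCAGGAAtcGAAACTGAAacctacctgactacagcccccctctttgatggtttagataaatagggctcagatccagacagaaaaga
Cxcl9: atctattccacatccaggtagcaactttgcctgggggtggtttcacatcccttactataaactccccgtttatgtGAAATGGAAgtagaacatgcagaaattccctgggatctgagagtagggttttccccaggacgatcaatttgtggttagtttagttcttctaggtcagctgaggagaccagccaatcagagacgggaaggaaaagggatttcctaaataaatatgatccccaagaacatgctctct
Serpina3f: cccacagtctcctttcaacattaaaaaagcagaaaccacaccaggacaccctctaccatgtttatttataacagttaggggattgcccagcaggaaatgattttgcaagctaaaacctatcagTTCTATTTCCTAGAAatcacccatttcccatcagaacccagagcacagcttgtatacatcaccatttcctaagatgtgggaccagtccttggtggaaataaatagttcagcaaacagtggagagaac
Serpina3g: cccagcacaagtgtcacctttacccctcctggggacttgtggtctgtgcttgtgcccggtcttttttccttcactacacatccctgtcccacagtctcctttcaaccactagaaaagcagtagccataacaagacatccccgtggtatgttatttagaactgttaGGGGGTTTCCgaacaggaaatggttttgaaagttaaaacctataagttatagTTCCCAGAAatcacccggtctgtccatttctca
Il6: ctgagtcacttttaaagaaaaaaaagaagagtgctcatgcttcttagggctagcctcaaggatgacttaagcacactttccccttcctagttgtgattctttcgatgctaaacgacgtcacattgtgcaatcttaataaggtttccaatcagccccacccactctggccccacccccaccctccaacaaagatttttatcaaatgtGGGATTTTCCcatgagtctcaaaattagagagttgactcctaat
Gbp5: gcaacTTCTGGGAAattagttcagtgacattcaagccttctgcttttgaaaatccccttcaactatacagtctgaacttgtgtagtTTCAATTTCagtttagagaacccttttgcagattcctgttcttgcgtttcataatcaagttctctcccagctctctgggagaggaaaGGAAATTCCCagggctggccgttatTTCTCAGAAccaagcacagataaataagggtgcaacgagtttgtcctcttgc
The windows lie at chr11:48992247-48992496, minus strand (Tgtp1), chr5:92328080-92328329, minus strand (Cxcl9), chr12:104214294-104214543, plus strand (Serpina3f), chr12:104235897-104236146, plus strand (Serpina3g), chr5:30012864-30013113, plus strand (Il6) and chr3:142496684-142496933, plus strand (Gbp5). In Tgtp1 a GAS match at -88 to -80 from the start is followed by an ISRE core at -77 to -69. In Serpina3f the ISRE core at -127 to -119, read on the other strand, overlaps the GAS match at -121 to -113, so the capitals form a single run. Gbp5 held 2 GAS matches (-245 to -237 and -52 to -44), an ISRE core (-164 to -156) and a κB site (-77 to -68), while Serpina3g held GAS (-33 to -25) and κB (-85 to -76). Il6 held a κB site alone (-44 to -35), and Cxcl9 an ISRE core alone (-175 to -167).

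Promoter windows, 300 bases including the first 50 after the start, were listed for 10 of the 16 highest genes, and 6 of the 10 (60%) held at least 1 of the motifs: 4 held GAS, 4 ISRE and 3 κB. Of the 12 windows listed for the 14 genes with the lowest log2 fold changes, 0 held a match. Over all 10259 tested genes with a window, 18% held at least 1 motif, with 6.96% for GAS, 7.54% for ISRE and 5.01% for κB. Among 159 windows of genes called with a log2 fold change of at least 3 the shares were 14.5, 20.1 and 13.2%, and among 59 windows of genes called at -3 or lower they were 11.9, 11.9 and 5.08%. Base composition differed between these sets too: the median GC content was 46% in the 10 highest genes' windows, 56.2% in the 12 lowest and 60.7% over all. A match is a description of the letters in a window, and its part in the change was not tested.

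Tgtp1, an immunity-related GTPase that acts on vacuoles holding intracellular pathogens, had the highest log2 fold change (chromosome 11, 48985327 to 48994172 in GENCODE M21). It stood at a normalised count of 4.57, 1.48 and 0 without stimulation and 2008, 1800.3 and 2208 with it (9.70 ± 0.83, limma adjusted p = 2.21e-09). Cxcl9, a chemokine that attracts T cells through CXCR3, went from 7.29, 4.76 and 19.8 to 7727, 7982 and 8169 (9.64 ± 0.93, adjusted p = 1.62e-08). Both genes were close to absent at rest and high in all 3 stimulated libraries, whose values lay within a narrow band. The serine protease inhibitor Serpina3f stood at 0.787, 0 and 1.47 unstimulated and 855, 778 and 813 stimulated (8.96 ± 0.99, adjusted p = 1.38e-07). Its neighbour Serpina3g was listed at 0 in all 3 unstimulated libraries and at 254, 257 and 232 after stimulation, so no fold is given and its place among the 16 rests on a fitted value. Clic5, of the chloride intracellular channel family, went from 3.73, 2.4 and 1.4 to 1369, 1450.3 and 1342 (8.68 ± 0.64). Groups that do not overlap were a condition for all 16 genes, so the gap between their libraries is no separate result.

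Il12b, which encodes the p40 subunit shared by interleukin-12 and interleukin-23, was at 0.746, 0.48 and 0 unstimulated and at 452, 473 and 536 stimulated (8.47 ± 0.59, adjusted p = 6.50e-11). Il6 went from 16.2, 34.3 and 14.4 to 1971, 1981 and 2031 (6.57 ± 0.67, adjusted p = 3.85e-08), and Cxcl11, another CXCR3 ligand, from 11.2, 15 and 24 to 1963, 1992 and 1891 (6.84 ± 0.62). Csf3, the granulocyte colony-stimulating factor, was at 0, 0.96 and 1.4 and then at 134, 92.7 and 126 (6.13 ± 0.62). Cd40, a costimulatory receptor of the TNF receptor family, already had 47.3, 57.3 and 48.4 at rest and reached 4261, 4388 and 4165 (6.37 ± 0.43). The remaining members of the 16 highest were BC023105, the hyaluronan synthase Has1, Fam26f, the guanylate-binding proteins Gbp10 and Gbp5, and Heatr9, at 6.14 to 6.88 on the log2 scale. Among all 16 the largest limma adjusted p was 1.58e-05. Together these 16 genes took 0.00387 to 0.00459% of the summed values at rest and 0.392 to 0.466% after stimulation. Tgtp1 and Tgtp2, the Serpina3 genes, the guanylate-binding proteins, the Ifi200 genes and the H2 genes have close relatives in sequence, so reads may have been split between relatives and their single values are uncertain.

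**Figure D2:**
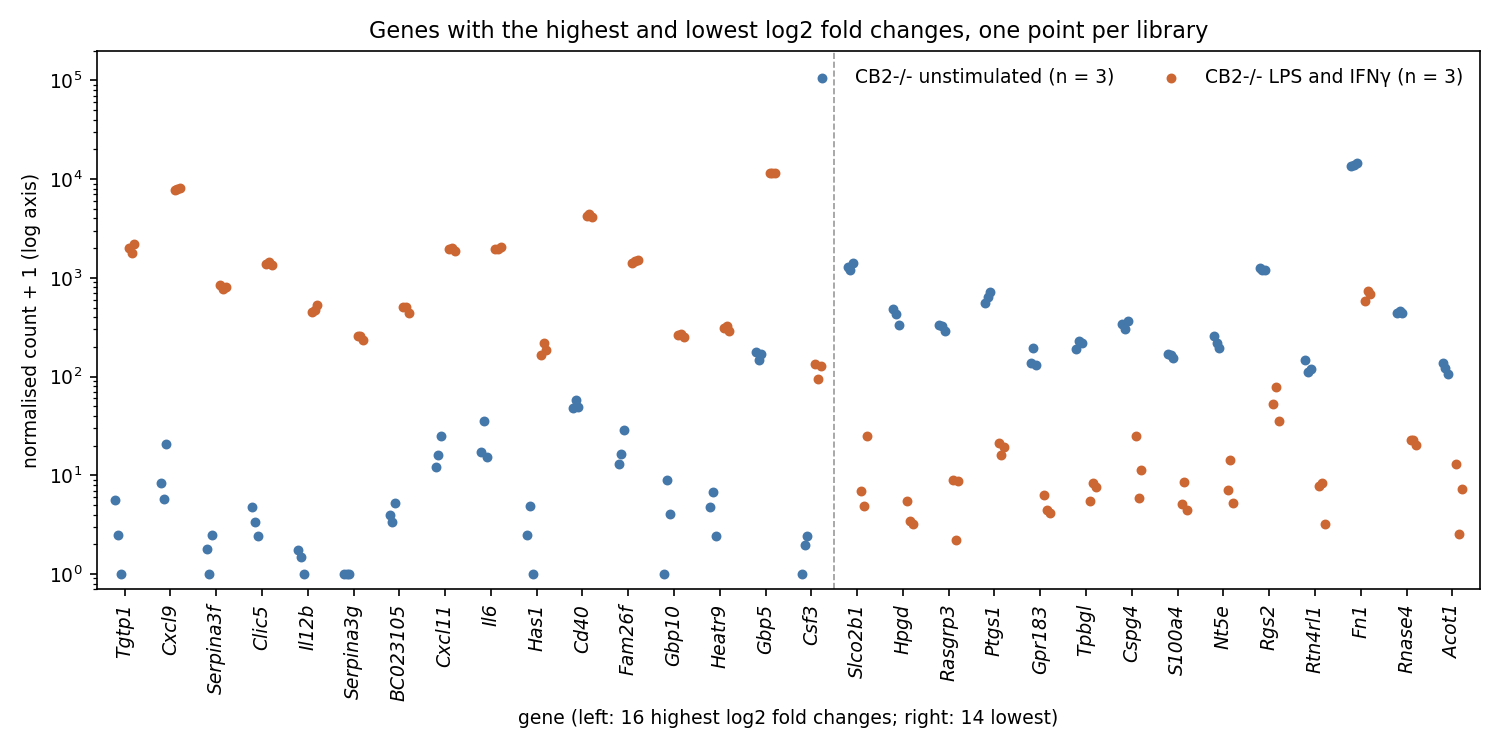
Normalised count plus 1 (log axis) of the 16 genes with the highest and the 14 with the lowest log2 fold changes, 1 point per library, blue for unstimulated and orange for LPS and interferon-γ (n = 3 each). No gene shown has overlapping groups, a condition of the selection; Serpina3g is listed at 0 in all unstimulated libraries and Fn1 falls from 13453 to 14682 to between 577 and 736.

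The interferon-inducible GTPases, which attack intracellular pathogens, moved as a block: of 22 tested members (22 listed), 22 rose and 0 fell, with a median log2 fold change of 4.58. Their log2 fold changes ran from 1.65 (Gvin1) to 9.70 (Tgtp1), with 7.19 for Gm4841. Gbp2, a guanylate-binding protein, rose from 708, 839 and 716 to 24782, 24520.5 and 26171 (5.06 ± 0.33, adjusted p = 3.05e-11), and Gbp5 from 177, 145 and 167 to 11483, 11679.8 and 11438. Without the libraries that stand apart 20 of the 22 were called higher. Type I interferon response genes rose less steeply: of 35 tested members (36 listed), 34 rose and 0 fell, with a median log2 fold change of 1.55. Rsad2, the antiviral enzyme viperin, went from 2199, 2143 and 2186 to 16788, 17079 and 15757 (2.93 ± 0.28), and Isg20, an exonuclease of RNA, from 229.6, 288 and 278 to 2029, 2055 and 1843 (2.90 ± 0.32). Ifit1bl1 had the highest value of that list (3.30 ± 0.78), and Ifit3b was the member not called (1.25 ± 0.79, adjusted p = 0.297). Ifnb1, the interferon-β gene, was at 0.746, 0.96 and 0 at rest and 29.9, 20.7 and 21 after stimulation (4.03 ± 0.92, adjusted p = 0.00191), so its level stayed low.

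MHC class I genes, which present peptides to CD8 T cells, also rose together: of 26 tested members (27 listed), 26 rose and 0 fell, with a median log2 fold change of 1.74. Under equal sums of all libraries 20 of the 26 were called. The heavy chain H2-K1 went from 29683, 35681 and 35287 to 70696, 73652 and 73520.5 (1.12 ± 0.11), and B2m, the light chain, from 49209, 53629.6 and 49609.8 to 73462, 74615 and 77499.7 (0.57 ± 0.11, a call lost under equal sums at 0.27 and under quantile scaling at 0.38). Larger changes were those of Nlrc5, the transactivator of class I genes (2.86 ± 0.23), the peptide transporter subunit Tap2 (2.41 ± 0.14) and H2-T10 (2.88 ± 0.33). Class II was mixed, in that of 12 tested members (13 listed), 4 rose and 1 fell, with a median log2 fold change of 1.22; 2 rose without the libraries that stand apart, and 3 fell under quantile scaling. Ciita, the class II transactivator, was listed at 0 in all unstimulated libraries and at 11.3, 11 and 4.43 after stimulation, still near the filter on low values. The class II β chain H2-Ab1 rose from 518, 712 and 759 to 2222, 2207 and 2346 (1.79 ± 0.27, adjusted p = 1.93e-05), another β chain, H2-Eb1, from 3.73, 13.4 and 5.59 to 41.2, 46.4 and 32.1 (2.40 ± 0.69), while the lysosomal thiol reductase Ifi30 fell (-0.67 ± 0.20). The H2-Ab1 call was lost without the term for the library number series (adjusted p = 0.163). The H2-Eb1 call was lost without unstimulated replicate 1 (2.05, adjusted p = 0.0673) and the Ifi30 call without unstimulated replicate 2 (-0.64, adjusted p = 0.0502). H2-DMb1, a chain of the peptide exchanger, had -0.70 ± 0.31 and was not called.

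Some of the rises lay side by side on the genome. Of the 14668 tested genes, 1074 were called higher by at least 1 on the log2 scale. How often runs of such genes would occur in a random order was not tested. Ordering the tested genes by position on GRCm38, the longest run of neighbours that were all called higher by at least 1 on the log2 scale held 9 genes on chromosome 11 (48861968 to 49135387), from Irgm1 to Tgtp2, with a median of 2.40. The next held 8 genes of chromosome 1 (173747293 to 174044411), mostly Ifi200 genes such as Ifi204 and Ifi205, which sense nucleic acids (1.31 to 3.53). A run of 7 on chromosome 5 (105014150 to 105346472) held Gbp8, Gbp9, Gbp4, Gbp10, Gbp6 and Gbp11 with the gene model Gm43302 (2.74 to 6.31), and a run of 6 on chromosome 17 (35377021 to 35474563) held the class I genes from H2-Q4 to H2-Q10 with the gene model Gm11131 (1.60 to 3.04). A further 6, from Gm4951 to BC023105 with Iigp1 among them, lay side by side at 3.42 to 7.19. Several runs of 5 genes came next, and that of chromosome 1 from Ifi206 to Ifi208 lay just beside the second. The others went from Slfn9 to Slfn2 on chromosome 11, Phf11a to Setdb2 on chromosome 14 and Agrn to Plekhn1 on chromosome 4. Most members of these clusters belong to families that share sequence, so their rises are not independent measurements.

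Proinflammatory cytokines rose almost throughout: of 19 tested members (21 listed), 17 rose and 1 fell, with a median log2 fold change of 3.77. Tnf went from 228, 226 and 179 to 2888, 2966 and 2740.3 (3.77 ± 0.21, adjusted p = 1.08e-12). Il1b, which encodes interleukin-1β, went from 2063, 2189.5 and 1773 to 23202, 23615 and 25419.5 (3.59 ± 0.34, adjusted p = 1.05e-08). Il27 (5.86), Tnfsf15 (5.22), Il23a (5.07) and Il1a (4.33) rose more steeply than Tnf, and Il18 (0.87) rose least. Osm, oncostatin M, was the one that fell, from 792, 863 and 776 to 404, 439 and 408 (-0.96 ± 0.22), and Lif was not called (0.75 ± 1.14). Among anti-inflammatory cytokines, decoys and receptors both directions appeared, as of 18 tested members (19 listed), 7 rose and 4 fell, with a median log2 fold change of 0.49. The interleukin-1 receptor antagonist Il1rn rose from 1786, 1953 and 1776 to 23249, 24149 and 25271 (3.72 ± 0.18). Il18bp, the interleukin-18 trap, rose from 251, 325 and 288 to 2540.1, 2455 and 2811 (3.17 ± 0.21). Il10 stayed low, at 0, 6.72 and 2.8 and then 41.8, 40.3 and 22.1 (3.48 ± 0.77, adjusted p = 0.00129). The TGF-β receptor genes Tgfbr1 (-1.04 ± 0.15) and Tgfbr2 (-0.99 ± 0.12) fell.

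Chemokines went in both directions: of 23 tested members (24 listed), 13 rose and 4 fell, with a median log2 fold change of 2.20 (2 fell without the libraries that stand apart). Besides Cxcl9 and Cxcl11, the CXCR3 ligand Cxcl10 rose from 389, 354 and 319 to 16719.6, 17304 and 16421 (5.57 ± 0.41, adjusted p = 1.70e-10). Ccl5, a chemokine that attracts T cells and monocytes, was already at 3124, 3999 and 3908 at rest and reached 37818, 42014 and 43245, one of the most precise changes (3.49 ± 0.10, adjusted p = 1.81e-17). The monocyte attractants Ccl2 and Ccl7 had small differences beside these. Ccl2 stood at 2593, 2123 and 1632 unstimulated and 3100, 3024 and 3369 stimulated (0.60 ± 0.74, adjusted p = 0.647). Ccl7 stood at 565, 468 and 438 unstimulated and 866, 932 and 952 stimulated (0.91 ± 0.89, adjusted p = 0.545). Neither was called, although the groups did not overlap and a fit of the 6 libraries alone called both (adjusted p = 0.0229 and 0.000588). Falls were those of Ppbp (-4.60 ± 1.00), Pf4 (-3.53 ± 0.50), Cxcl14 (-3.28 ± 0.29) and Ccl6 (-2.65 ± 0.53), with Pf4, platelet factor 4, going from 2573, 3003 and 2882 to 212, 243 and 279. Of the chemokine and chemoattractant receptors tested, 7 of 18 rose and 6 fell. Ccr7, which guides cells to lymph nodes, went from 0.746, 3.84 and 5.59 to 114, 171 and 127 (5.16 ± 0.90). The oxysterol receptor Gpr183 fell from 135, 194 and 129 to 5.31, 3.44 and 3.12 (-4.96 ± 0.64). Cxcr4, the receptor of CXCL12, fell from 1195, 1444 and 1452 to 82.4, 74.3 and 139 (-3.83 ± 0.41).

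Among the components that carry the 2 signals, Tlr4 and Ifngr1 fell while several inner components rose: of 22 tested members (22 listed), 10 rose and 2 fell, with a median log2 fold change of 0.50. Under equal sums 6 were called higher, and under equal sums without the 3 abundant genes 4 were called lower. Tlr4 went from 1121, 892 and 913 to 401, 514 and 434 (-1.12 ± 0.22, adjusted p = 0.000356). Ifngr1, the ligand-binding chain of the interferon-γ receptor, went from 995, 1005 and 1087 to 594, 621 and 623 (-0.75 ± 0.11, adjusted p = 8.41e-06). Irak3, an inhibitory kinase homologue of this pathway, rose from 265, 289 and 245 to 1663, 1756 and 1879 (2.73 ± 0.14), and the kinase gene Ikbke rose as well (1.66 ± 0.18). Of the IRF and STAT factors none was called lower: of 18 tested members (19 listed), 9 rose and 0 fell, with a median log2 fold change of 0.86. Irf1, an early transcription factor of the interferon-γ response, went from 323, 409 and 476 to 7492, 7783 and 8053 (4.29 ± 0.20, adjusted p = 1.06e-13). Batf2 (5.47 ± 0.54) and Batf (3.08 ± 0.28) rose from low levels. NF-κB, AP-1 and feedback regulators rose in most cases, as of 30 tested members (30 listed), 21 rose and 1 fell, with a median log2 fold change of 1.40. Socs1, which blocks JAK signalling, went from 81.3, 83.1 and 83.9 to 975, 959 and 1014 (3.55 ± 0.65), and Socs3 from 1101, 1355 and 1147 to 7227, 7476 and 7679.6 (2.64 ± 0.23). The phosphatase Dusp2 rose from 5.66, 7.28 and 2.65 to 146, 184 and 159 (4.80 ± 0.43). Fos, an early AP-1 subunit, was the one that fell (-2.04 ± 0.20). Among other sensors of microbes 11 of 23 rose and 4 fell (1 fell without the libraries that stand apart). Nod1 (4.05 ± 0.30), Clec4e (3.29 ± 0.24) and Tlr1 (3.05 ± 0.15) were the highest, and the β-glucan receptor Clec7a fell (-2.08 ± 0.56). Tlr5 was listed at 0 in all stimulated libraries after 5.15, 10.8 and 3.86 at rest. That call was lost without any 1 of 5 libraries (adjusted p from 0.0539 without unstimulated replicate 1 to 0.112 without unstimulated replicate 2, and 0.0642 to 0.0654 without stimulated replicate 1, 2 or 3).

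Costimulatory and checkpoint molecules gave 9 of 15 tested higher and 2 lower (4 lower under quantile scaling), with a median of 1.68. Cd274, which encodes the checkpoint ligand PD-L1, rose from 1763, 1784 and 2025 to 14918, 15116 and 15651 (3.04 ± 0.20, adjusted p = 2.98e-11). Slamf8 (4.40 ± 0.52) and Slamf7 (3.93 ± 0.24) rose too. The inhibitory receptor Cd200r1 fell from 289, 251 and 224 to 27.8, 34.7 and 42.8 (-2.84 ± 0.36), as did Vsir, which encodes the checkpoint VISTA (-1.28 ± 0.20). Inflammasome and death genes rose in 16 of 29 cases and fell in 3 (0 fell without the libraries that stand apart, 6 under equal sums without the 3 abundant genes). They were led by the death receptor Fas (3.60 ± 0.30), the LPS-sensing caspase gene Casp4 (3.27 ± 0.24) and the necroptosis effector Mlkl (2.67 ± 0.48), while the inflammasome adaptor Pycard fell (-0.68 ± 0.19). Acute-phase proteins and antiproteases gave 8 of 16 higher and 0 lower, among them the siderophore-binding lipocalin Lcn2, at 47.7, 52 and 17.9 and then 1759, 2021 and 2054 (5.73 ± 0.59). Complement genes split evenly, with 7 of 19 higher and 7 lower (2 and 4 without the libraries that stand apart). The classical pathway protease C1s1 (4.61 ± 1.18) and the C1 inhibitor Serping1 (3.97 ± 0.87) rose, and the regulator Cfp fell (-1.66 ± 0.21).

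Enzymes that make nitric oxide, itaconate and kynurenine rose, within a list that went in both directions: of 25 tested members (27 listed), 11 rose and 5 fell, with a median log2 fold change of 0.76 (3 fell without the libraries that stand apart). Nos2, the inducible nitric oxide synthase, was already at 424, 764 and 822 at rest and reached 13527, 14005 and 15102 (4.46 ± 0.82, adjusted p = 0.000187). Acod1, which makes itaconate, rose from 929, 969.6 and 821 to 21560.3, 22519.9 and 21945 (4.60 ± 0.33, adjusted p = 1.37e-10). The arginine transporter Slc7a2 rose from 267, 260.3 and 219.8 to 7923, 8054 and 8524 (5.03 ± 0.56). Ido1, which degrades tryptophan, was listed at 0 in all unstimulated libraries and at 24.8, 23.7 and 43.9 after stimulation. Arg1, which competes with nitric oxide synthase for arginine, was high in both groups, at 14326, 19155 and 19471 unstimulated and 9304, 9288 and 11229.8 stimulated. The groups did not overlap, and the change was called when only the 6 libraries were fitted (adjusted p = 0.00327) but not in the fit of all 27 (-0.82 ± 1.19, adjusted p = 0.71), whose error comes from the spread within all groups. In prostaglandin metabolism the inducible cyclooxygenase Ptgs2 (4.74 ± 0.50) and the synthase Ptges (4.24 ± 0.48) rose. The constitutive cyclooxygenase Ptgs1 fell from 556, 636 and 715 to 20.1, 15.2 and 18.2 (-5.08 ± 0.71). The prostaglandin-degrading dehydrogenase Hpgd fell from 488, 434 and 336 to 4.52, 2.44 and 2.21 (-6.72 ± 0.36, adjusted p = 1.06e-12).

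Oxidant and antioxidant genes rose in 12 of 25 cases and fell in 1 (6 rose under equal sums, 4 fell under quantile scaling). Sod2, the mitochondrial superoxide dismutase, went from 860.1, 898 and 857 to 10889, 11176 and 11555 (3.68 ± 0.13, adjusted p = 7.47e-16). The glutathione peroxidase Gpx1 fell from 2972, 3627 and 3648 to 1111, 1004 and 1129 (-1.65 ± 0.15). Iron handling changed in both directions: the ferritin heavy chain Fth1 rose from 55143, 64294 and 63638 to 127601, 130759 and 140916 (1.13 ± 0.13, not called under equal sums at 0.83 or quantile scaling at 0.59). The transferrin gene Trf fell from 5945, 8105 and 8608 to 1192, 1448 and 1413 (-2.47 ± 0.42) and the ferrireductase Steap3 with it (-3.30 ± 0.50). Of the matrix metalloproteinases and inhibitors 4 of 19 rose and 3 fell (1 fell without the libraries that stand apart, 5 under quantile scaling). Mmp13, a collagenase, went from 841, 1050.3 and 1145 to 13071, 13178 and 13899.7 (3.73 ± 0.40, adjusted p = 8.70e-08). Mmp25, a membrane-anchored member, went from 2.24, 4.32 and 0 to 146, 172 and 117 (5.80 ± 0.83). In central metabolism, glycolysis and hypoxia genes gave 10 of 26 higher and 1 lower (4 and 0 without the libraries that stand apart, 4 higher under equal sums). The hexose transporter Slc2a6 went from 60.4, 66.8 and 43.3 to 1276, 1409 and 1156 (4.49 ± 0.28), with Hk3 (1.41 ± 0.11) and Pfkfb3 (1.32 ± 0.18) behind it. Genes of the tricarboxylic acid cycle and pentose pathway gave 1 of 25 higher and 8 lower (14 lower under equal sums without the 3 abundant genes). The isocitrate dehydrogenase Idh1 fell from 721, 797 and 746 to 134, 114 and 145 (-2.52 ± 0.15), ahead of Idh2 (-2.38 ± 0.28). Cholesterol and fatty acid genes gave 6 of 33 higher and 6 lower (1 and 1 without the libraries that stand apart). Ch25h, which makes an oxysterol from cholesterol, was higher (2.20 ± 0.42) and Acaca, the rate-limiting enzyme of fatty acid synthesis, lower (-1.56 ± 0.31).

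**Figure D3:**
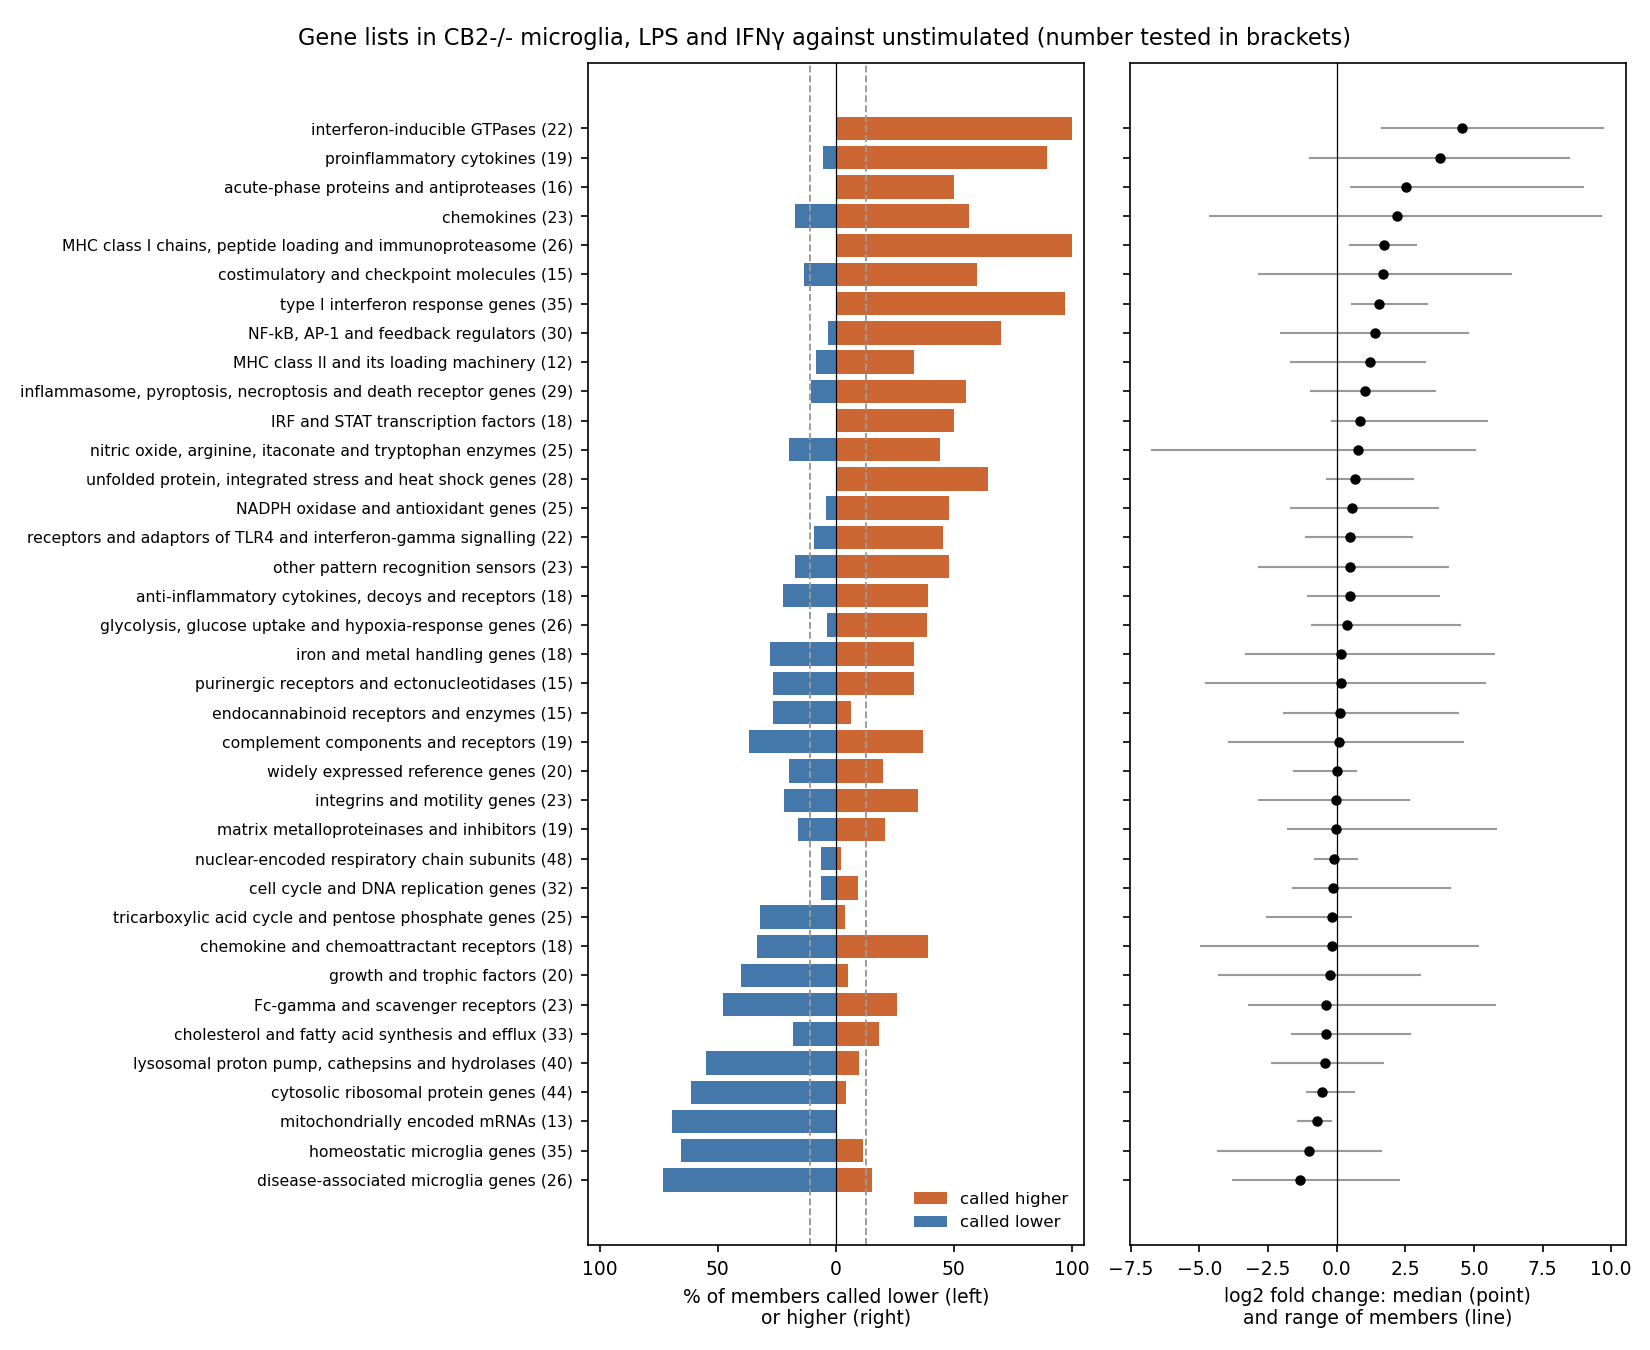
Gene lists ordered by median log2 fold change. Left, percent of tested members called higher (orange, to the right) or lower (blue, to the left), with dashed lines at the 12.8 and 10.9% of all genes; right, median (point) and range (line) of members' log2 fold changes. Interferon-inducible GTPases and MHC class I reach 100% higher, and disease-associated and homeostatic microglia genes lie at the lower end.

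Of the 14 genes with the lowest log2 fold changes, 7 were in none of the lists. Slco2b1, an organic anion transporter, had the lowest log2 fold change (chromosome 7, 99657804 to 99711340): it stood at 1283, 1201 and 1404 unstimulated and 5.97, 3.92 and 23.9 stimulated (-7.09 ± 0.76, limma adjusted p = 8.75e-08). Rasgrp3, a Ras exchange factor, went from 331, 322 and 289.6 to 7.91, 1.22 and 7.75 (-5.82 ± 0.50). Fn1, fibronectin, was high at rest and fell from 13453, 13773 and 14682 to 577, 736 and 691 (-4.39 ± 0.72). Rgs2, which dampens G protein signalling, fell from 1253, 1187 and 1204 to 51.2, 78.3 and 34.6 (-4.53 ± 0.29, adjusted p = 1.96e-11). That all 3 stimulated libraries of these genes lay under the lowest unstimulated one was a condition of their selection. Nt5e, the ectonucleotidase CD73 that makes adenosine from AMP, fell from 254, 219 and 195 to 6.11, 13.3 and 4.23 (-4.78 ± 0.71). The adenosine receptor Adora2a rose from 3.1, 3.99 and 4.84 to 233, 245 and 152 (5.39 ± 0.75). The other genes among the 14 lowest were Hpgd, Ptgs1 and Gpr183, given above, and Tpbgl, Cspg4, S100a4, Rtn4rl1, the ribonuclease Rnase4 and the thioesterase Acot1 (-4.90 to -4.28). The largest adjusted p of the 14 was 0.00258. Growth and trophic factors fell in 8 of 20 cases and rose in 1 (3 fell without the libraries that stand apart). Hgf, the hepatocyte growth factor, went from 107, 90 and 81.3 to 8.71, 4.29 and 1.76 (-4.16 ± 0.66), with Fgf2 (-4.27 ± 0.98) and Bmp2 (-3.24 ± 0.58) also lower and Igfbp4 higher (1.18 ± 0.24).

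Genes of the homeostatic state, which mark microglia at rest in the brain, fell on the whole: of 35 tested members (38 listed), 4 rose and 23 fell, with a median log2 fold change of -1.02. Without the libraries that stand apart 3 were called higher and 13 lower, and under equal sums 2 were higher. Cx3cr1, the fractalkine receptor, fell from 1655, 1699 and 1930.4 to 185, 165 and 148 (-3.40 ± 0.19, adjusted p = 2.63e-12). Tmem119, a microglial surface marker, fell from 143, 166 and 152 to 23.7, 23.3 and 23.2 (-2.66 ± 0.52, adjusted p = 0.000358). P2ry12, the ADP receptor of microglial processes, was low even at rest, at 59.7, 61.3 and 54.1, and fell to 22.7, 24.7 and 12.1 (-1.57 ± 0.49, adjusted p = 0.022). That call was lost without unstimulated replicate 1 or 2 (-1.55 and -1.53, adjusted p = 0.0586 and 0.0628), without stimulated replicate 3 (-1.26, adjusted p = 0.119), under quantile scaling (-1.48) and without the series term (-1.57, adjusted p = 0.0529). Against the list, Sall1, a transcription factor of microglial identity, rose from 149, 174 and 123 to 342, 354 and 329 (1.21 ± 0.18), as did Gpr84, a receptor of medium-chain fatty acids (1.61 ± 0.22). Genes of the disease-associated state fell as well: of 26 tested members (26 listed), 4 rose and 19 fell, with a median log2 fold change of -1.34 (1 rose without the libraries that stand apart). Spp1, osteopontin, went from 27078, 24665 and 23202 to 1864, 1829.6 and 1849 (-3.75 ± 0.44). Trem2, the lipid receptor that drives that state and is also in the homeostatic list, went from 3301, 3484 and 3415 to 476, 495 and 419 (-2.88 ± 0.25). Apoe, apolipoprotein E, fell moderately, from 144382, 161687 and 155728 to 100636, 102547 and 107223 (-0.57 ± 0.16; -0.87 and adjusted p = 0.0597 under equal sums, adjusted p = 0.0638 without the series term), whereas Ch25h and Csf1 (2.26 ± 0.66) rose. The Csf1 call was lost without stimulated replicate 2 (2.09, adjusted p = 0.0557).

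Lysosomal genes fell in most called cases: of 40 tested members (40 listed), 4 rose and 22 fell, with a median log2 fold change of -0.43, and 2 rose and 13 fell without the libraries that stand apart. The lysosomal lipase Lipa went from 3583, 3656 and 3588 to 803, 709.8 and 812 (-2.22 ± 0.11). Ctsh (1.69 ± 0.13) and Ctsc (1.11 ± 0.17), cathepsins that work as exopeptidases, rose against the list. Fc and scavenger receptors gave 6 of 23 higher and 11 lower (3 higher without the libraries that stand apart or under quantile scaling). Mrc1, the mannose receptor, fell from 503, 456 and 512 to 79.1, 46.3 and 78.3 (-2.87 ± 0.42), and Gas6, a bridging ligand for apoptotic cells, from 415, 459.6 and 501 to 39.5, 45.1 and 65.3 (-3.20 ± 0.31). Timd4, a receptor of phosphatidylserine, went the other way, from 0, 2.4 and 0 to 53.6, 102 and 94.1 (5.76 ± 1.01). Genes of the macrophage lineage themselves gave 4 of 12 higher and 6 lower (2 higher without the libraries that stand apart, 1 under equal sums or quantile scaling). Lyz2, lysozyme, fell from 26632, 28548 and 27389.8 to 9133, 9259 and 10052 (-1.54 ± 0.16), and Adgre1, a surface antigen of macrophages, rose from 5751, 5522 and 5389 to 9579, 9524 and 10197 (0.81 ± 0.13). Adgre1 was not called under equal sums (0.52) or quantile scaling (0.19).

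Endocannabinoid genes other than Cnr2 gave 1 of 15 tested higher and 4 lower. Gpr18, a receptor that binds endocannabinoid-related lipids, rose from 19.4, 21.1 and 37.8 to 539.9, 554 and 559.9 (4.41 ± 0.33, adjusted p = 2.39e-10). The hydrolase Abhd12, which degrades 2-arachidonoylglycerol, fell from 3914, 3877 and 3620.1 to 1051, 924 and 1076 (-1.90 ± 0.13), and Daglb, which makes that lipid, from 372, 368 and 419.9 to 105, 93.4 and 111 (-1.90 ± 0.27). The enzymes Faah (0.64 ± 1.01), Napepld (0.11 ± 0.52) and Mgll (1.56 ± 0.97) were not called. Purinergic receptors and ectonucleotidases, among them Nt5e and Adora2a, gave 5 of 15 higher and 4 lower (1 lower without the libraries that stand apart).

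Stress genes, ribosomal protein genes and mitochondrially encoded mRNAs moved too. Of 28 unfolded protein, integrated stress and heat shock genes 18 rose and 0 fell (9 without the libraries that stand apart, 7 under equal sums, 13 under equal sums without the 3 abundant genes). The chaperone Hspa5 went from 3181, 2995 and 2945 to 8099, 8049 and 7539 (1.38 ± 0.12), and the heat shock protein genes Hspa1a (2.79 ± 0.77) and Hspa1b (2.30 ± 0.63), near-identical neighbours, rose further, the Hspa1a call being lost without unstimulated replicate 1 (2.41, adjusted p = 0.0506) and both calls without the series term (adjusted p = 0.0619 and 0.0973). Of 44 genes for cytosolic ribosomal proteins 2 rose and 27 fell, with a median of -0.52 (14 lower without the libraries that stand apart, 38 under equal sums without the 3 abundant genes). Rpsa fell from 3270, 3469.7 and 3238 to 1576, 1496 and 1695 (-1.07 ± 0.13). Mitochondrially encoded mRNAs gave 0 of 13 higher and 9 lower, and took 0.575 to 0.964% of the summed values at rest and 0.571 to 0.647% after stimulation. Nuclear-encoded subunits of the respiratory chain gave 1 of 48 higher and 3 lower, shares under those of all genes, but 15 lower under equal sums without the 3 abundant genes. Integrin and motility genes gave 8 of 23 higher and 5 lower (11 lower under quantile scaling), and widely expressed reference genes 4 of 20 and 4 (0 higher under equal sums, 8 lower under equal sums without the 3 abundant genes). Of the cell cycle genes 3 of 32 rose and 2 fell, shares under those of all genes. Their median was -0.12, and 0.04 without the libraries that stand apart. Mki67, a proliferation marker, rose from 5.86, 3.77 and 1.22 to 37, 45.8 and 40.6 (3.33 ± 0.66), while Top2a (-1.54 ± 1.02) and Cdk1 (-1.36 ± 0.63) were not called.

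Markers of other cells that such cultures can hold were mostly low, and most were not called. Of the astrocyte markers 0 of 9 tested were called in either direction, and their summed normalised count was 216 to 312 at rest and 263 to 336 after stimulation, with Gfap at 54.1, 110.5 and 48.7 unstimulated and 48.5, 60.1 and 77.9 stimulated. Of the fibroblast and meningeal markers 1 of 11 was called, namely Fn1, which macrophages also express. The list summed to 13591 to 14841 at rest and 745 to 940.2 after stimulation, and without Fn1 it summed to 139 to 203 at rest and 168 to 249 after stimulation. Col1a1, a fibroblast collagen, was at 12.6, 15.2 and 8.31 unstimulated and 5.03, 16.9 and 11 stimulated. Oligodendrocyte lineage markers gave 1 of 9 higher and 2 lower, with a sum of 1556 to 1598 at rest and 1322 to 1392 after stimulation. Cnp rose from 527, 528 and 562 to 1091, 1148 and 1141, Mbp fell from 651, 683 and 618 to 156, 140 and 152, and Cspg4, one of the 14 lowest genes, fell from 338, 305 and 363 to 24.1, 4.95 and 10.2. These 3 made up most of the sum, while Mog was listed at 0 in all 6 libraries. Endothelial markers gave 0 of 5 higher and 1 lower, namely Flt1, a receptor of vascular endothelial growth factor, which fell from 247, 366 and 305 to 83.9, 75.2 and 73.9. Pecam1, another of them, stood at 112, 130 and 288.5 unstimulated and 191, 430.2 and 491 stimulated and was not called. The endothelial sum was 481 to 692 at rest and 413 to 676 after stimulation. Of the neuronal markers, 7 of 10 in the table were under 10 in all 6. Border macrophage markers gave 0 of 5 higher and 3 lower, namely Mrc1, Pf4 and Folr2 (-1.33 ± 0.22). Ms4a7, also of this list, was high in both groups and not called. It stood at 3060, 3323 and 3203 unstimulated and 3264, 3236 and 3425 stimulated. The sum of the whole list was 6334 to 7004 at rest and 3624 to 3868 after stimulation. Monocyte and neutrophil markers gave 2 of 6 higher, Ccr2 (2.49 ± 0.66) and Camp (2.55 ± 0.66), each under 40 in every library and the Ccr2 call lost without unstimulated replicate 3 (2.02, adjusted p = 0.0518) or the series term (adjusted p = 0.0591), and lymphocyte markers 0 of 1. The part of any of these cells in the changes of their markers was not tested.

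The response was then set beside that of wild-type microglia to the same stimulus, with the difference between the 2 responses tested in the same fit. All stimulated wild-type libraries carry numbers of another series (from 3012 to 3023) than all CB2-/- libraries (from 2048 to 2059), so a difference in response between genotypes and one between library series cannot be told apart. Unstimulated wild-type cells are in both series: replicates 1 to 3 share that of the stimulated wild type and serve as its baseline, and replicates 4 to 6 share that of the CB2-/- cells. Gm19220, Gm26822 and Grip2 took 0.00118 to 0.00224% of the summed values in replicates 1 to 3 and 6.07 to 31.1% in replicates 4 to 6. Mitochondrially encoded genes took 3.08 to 3.2% in replicates 1 to 3 and 0.763 to 1.42% in replicates 4 to 6. The difference passed the threshold for 1810 of 14668 genes (12.3%), 584 with a higher and 1226 with a lower response in CB2-/- cells, where a lower response means a smaller rise or a larger fall. Without unstimulated replicate 3 and stimulated replicates 2 and 3 of CB2-/-, which leaves 1 stimulated CB2-/- library, the count was 724, and of the genes named for this comparison Il12b, Cd40, Capn3, Il4i1, Cnr2 and Socs1 lost their calls. Without all 6 libraries over 10% it was 741, and Abhd15 (adjusted p = 0.0529) and Tmem119 (adjusted p = 0.063) were lost as well, while Cd40, Capn3 and Socs1 were kept; under equal sums without the 3 abundant genes 61.9% of 1915 called genes were higher in place of 32.3%. The 8 lowest differences among genes with a mean of at least 100 in some group were those of Nos2, Ccl7, Pdpn, Ccl2, Mmp13, Il12rb1, AA467197 and Upp1. Their higher log2 fold changes in wild type follow from this choice. Nos2 stood at 0, 10.8 and 6.47 in unstimulated wild-type replicates 1 to 3 and at 49456, 49814 and 44385 in stimulated wild type, against the 424 to 822 and 13527 to 15102 of CB2-/- cells (difference of the log2 responses -8.93 ± 1.16, limma adjusted p = 7.56e-06; -5.89 and 0.0648 without the series term). Unstimulated wild-type replicates 4 to 6 had 443, 266 and 231 of it, so the resting values of the 2 series lay apart within wild type. Arg1 showed the same at rest, replicates 1 to 3 having 11.6, 105 and 128 against 25227, 19648 and 19782 for replicates 4 to 6. Mmp13 went from 60.1, 45.4 and 43.5 to 78179, 77974 and 67179 in wild type, with 695, 209 and 162 in replicates 4 to 6 (-6.80 ± 0.56, adjusted p = 1.40e-08). Ccl2 went from 20.5, 88.4 and 59.3 to 10331, 9429 and 8066 in wild type, with 453, 133 and 56 in replicates 4 to 6 (-6.96 ± 1.04, adjusted p = 5.08e-05). Its neighbour Ccl7 went from 1.09, 13.4 and 21 to 3584, 3368 and 2767 (-7.62 ± 1.26). Pdpn, podoplanin, was under 30 in all 6 CB2-/- libraries and reached 4239, 3886 and 3602 in stimulated wild type (-7.01 ± 1.66, adjusted p = 0.00549). Il12rb1, a chain of the interleukin-12 receptor, the uridine phosphorylase Upp1 and AA467197 completed the 8, at -6.32 to -5.92.

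Among the panel genes Il6 (-5.33 ± 0.94), Cxcl10 (-4.46 ± 0.58), Tnf (-3.16 ± 0.29) and Il12b (-3.29 ± 0.83) also rose less in CB2-/- cells, with adjusted p from 6.20e-08 (Tnf) to 0.009 (Il12b, 0.0799 without the series term). Il6 reached 7364 ± 949.9 in stimulated wild type against 1994 ± 32.1 in stimulated CB2-/- cells (mean ± SD, n = 3 each), and Tnf 11225 ± 1037 against 2865 ± 115. For Cxcl10 the stimulated levels were 38294 ± 1226 and 16815 ± 449, from resting levels of 46.2 ± 34.6 and 354 ± 35.3. Several genes of the response did not pass this test: the difference was -0.32 ± 1.17 for Tgtp1 (adjusted p = 0.914), -0.38 ± 0.28 for Irf1 (adjusted p = 0.474) and -2.61 ± 1.31 for Cxcl9 (adjusted p = 0.23), and Il1b had 0.09 ± 0.48 (adjusted p = 0.939). None of these 4 passed, but the errors of Tgtp1 and Cxcl9 were over 1 on the log2 scale, and Cxcl9 passed without unstimulated wild-type replicate 1 (-3.89, adjusted p = 0.0347). H2-Ab1 went from 663 ± 128 to 2258 ± 76.4 in CB2-/- cells and from 23.8 ± 6.92 to 676 ± 29.4 in wild type (-3.03 ± 0.39, adjusted p = 6.34e-06, 0.685 without the series term). Here too unstimulated wild-type replicates 4 to 6, at 468, 394 and 301, lay nearer to the resting CB2-/- cells than to replicates 1 to 3.

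Of the 8 genes with the highest differences all but Il4i1 were called lower in wild type. Tmem119 went from 420.5, 677 and 581 to 3.18, 2.96 and 19.8 in wild type, with 204, 308 and 363 in unstimulated replicates 4 to 6 (3.63 ± 0.73, adjusted p = 0.00127). Tmem176b, a membrane protein gene, was not called in CB2-/- cells, at 490.3, 594 and 523 unstimulated and 475, 476 and 498 stimulated, but went from 4285, 4624 and 4955 to 340.4, 322 and 371 in wild type, with 662, 1446 and 1313 in unstimulated replicates 4 to 6 (3.60 ± 0.28, adjusted p = 6.88e-09). Il4i1, a secreted amino acid oxidase, rose from 18.3, 30.5 and 16.7 to 159.9, 168 and 153 in CB2-/- cells and stood at 23.3, 20.1 and 22.9 unstimulated and 7.48, 11.5 and 7.08 stimulated in wild type, where it was not called (difference 4.15 ± 0.86, adjusted p = 0.00171). The calpain Capn3 had the highest value (4.24 ± 1.30, adjusted p = 0.0326), a call lost without the series term (2.94, adjusted p = 0.221) and when 8 of the 12 compared libraries were left out 1 at a time (adjusted p 0.0541 to 0.0991), all but unstimulated wild-type replicate 2, stimulated wild-type replicate 2, unstimulated CB2-/- replicate 3 and stimulated CB2-/- replicate 2. Cnr2 (2.54 ± 0.77, adjusted p = 0.0294) lost its call for 9 of the 12 (0.0505 to 0.0709), all but unstimulated wild-type replicate 1, stimulated wild-type replicate 1 and unstimulated CB2-/- replicate 3. Col27a1, Abhd15, Pxdc1 and Csad completed the 8 highest, at 3.53 to 4.03.

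**Figure D4:**
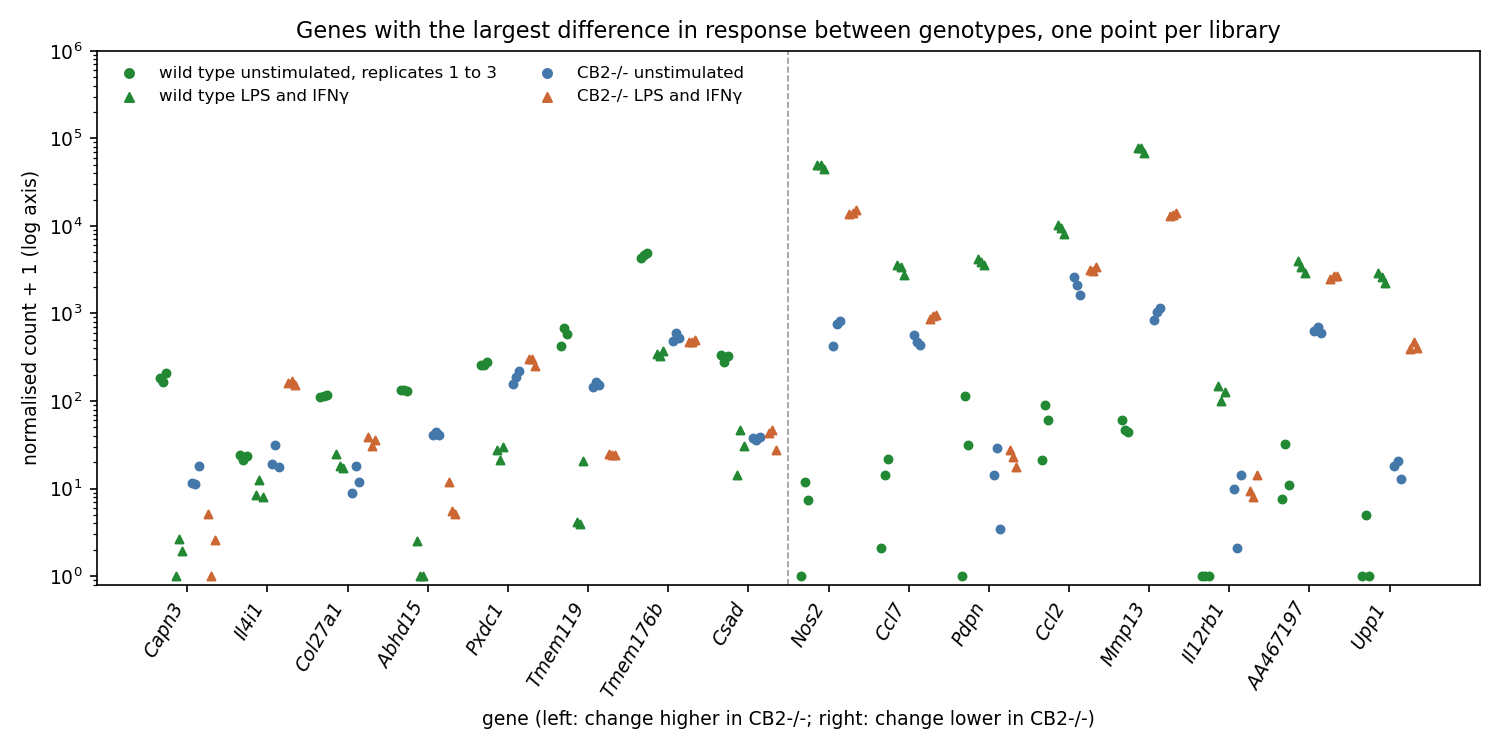
Normalised count plus 1 (log axis) of the 8 genes with the highest (left) and the 8 with the lowest (right) difference between the CB2-/- and wild-type responses, 1 point per library and 3 per group; circles are unstimulated, triangles stimulated, green is wild type. For Nos2, Ccl2 and Mmp13 the CB2-/- groups lie between the 2 wild-type groups.

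Finally, stimulated CB2-/- cells were compared directly with CB2-/- cells under the other Toll-like receptor ligands, which lack interferon-γ. Against PolyI:C, a synthetic mimic of viral double-stranded RNA that TLR3 detects, 1747 genes differed (11.9%), 1019 of them higher with LPS and interferon-γ and 728 lower. Without unstimulated replicate 3 and stimulated replicates 2 and 3 the count was 565, from 1 stimulated library against all 3 of PolyI:C, and Cspg4 lost its call. With the second PolyI:C library left out as well, in the fit without all 6 libraries over 10%, it was 492, and Nt5e lost its call too (-3.98, adjusted p = 0.088). Under equal sums without the 3 abundant genes 37.3% of 1886 called genes were higher, in place of 58.3%. The 5 highest, Tgtp1, Cxcl9, Serpina3f, Serpina3g and Fam26f, all belonged to the 16 highest of the main comparison. Both comparisons use the same stimulated libraries, so this overlap is no separate support. Cxcl9 stood at 81.1, 2.5 and 6.87 with PolyI:C (9.24 ± 0.93, limma adjusted p = 1.94e-07) and Tgtp1 at 53.6, 16.2 and 15.6 (6.32 ± 0.83, adjusted p = 7.20e-06). Lowest, and so by choice lower with LPS and interferon-γ than with PolyI:C, were Slco2b1, Cspg4, Nt5e, Cxcr4 and Cd300lb. Slco2b1 kept 274, 419 and 267 with PolyI:C (-5.05 ± 0.76), Cxcr4 933, 908 and 832 (-3.22 ± 0.41) and the myeloid receptor Cd300lb 493, 621 and 492 (-3.21 ± 0.32). The second PolyI:C library, in which Gm19220, Gm26822 and Grip2 took 50.8% of the summed values, had the lowest value of the 3 for Cxcl9 and the highest for Slco2b1.

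Against CpG, an unmethylated DNA ligand of TLR9, 1493 genes differed (10.2%), 933 higher with LPS and interferon-γ and 560 lower. The count was 561 without the libraries that stand apart, from 1 stimulated library, and Il10 (adjusted p = 0.0724), Adamts4 and Shisa3 lost their calls. Under equal sums without the 3 abundant genes 31.5% of 2112 called genes were higher, in place of 62.5%. The 5 highest again belonged to the 16 highest of the main comparison, with Clic5 and BC023105 joining Tgtp1, Cxcl9 and Serpina3f. Here too the stimulated libraries are shared, so the overlap is no separate support. Tgtp1 was at 3.76, 2.21 and 0 with CpG (9.65 ± 0.83, adjusted p = 6.83e-09) and Irf1 at 457, 481 and 512 (4.01 ± 0.20, adjusted p = 8.18e-13). The 5 lowest were, by that choice, genes higher with CpG. Il10 reached 631, 609 and 593 with CpG (-4.15 ± 0.77, adjusted p = 0.000464), and the dicarboxylate transporter Slc13a3 reached 1837, 1735 and 2038 (-3.52 ± 0.50, adjusted p = 1.78e-05). The aggrecanase Adamts4, the myeloid receptor Cd300e and Shisa3 followed (-3.27 to -3.10). Il12b too was higher with CpG, at 2485, 2474 and 2374 (-2.33 ± 0.59, adjusted p = 0.00919). The differences of Irf1 and Il12b from CpG were not followed in the alternatives. Tnf, at 2976, 2919 and 2709 with CpG, did not pass the test (error 0.21 on the log2 scale, adjusted p = 1), nor did Il6 (0.59 ± 0.67, adjusted p = 0.762), whose error is larger.

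**Figure D5:**
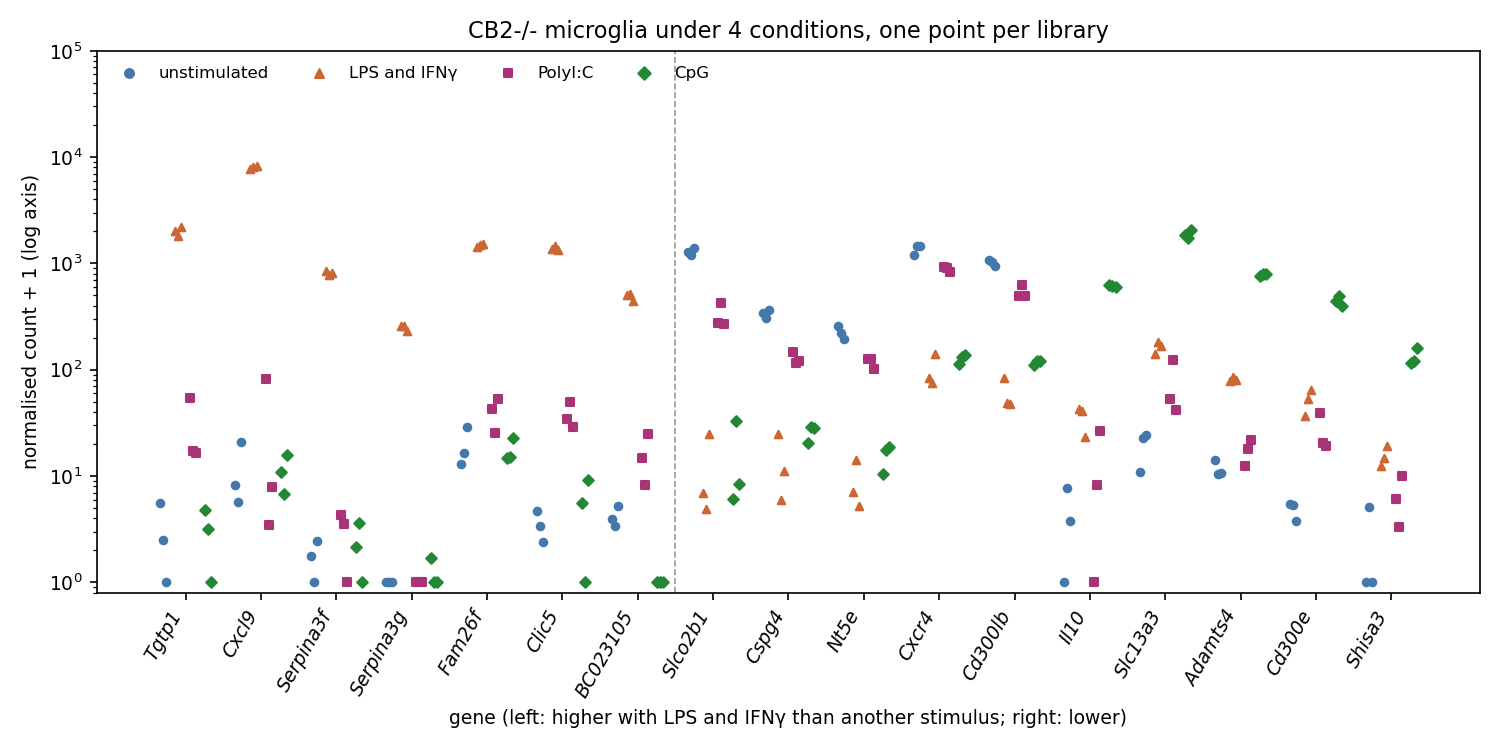
Normalised count plus 1 (log axis) in the 4 CB2-/- conditions, 1 point per library and 3 per condition, for the genes with the highest (left) and lowest (right) differences between LPS with interferon-γ and PolyI:C or CpG. Tgtp1, Cxcl9 and Serpina3f are high with LPS and interferon-γ alone among the 4 conditions, and Il10 and Slc13a3 are highest with CpG.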

How the data were processed

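RNA-seq values of 27 microglia libraries were used, 6 of them in the main comparison. Libraries were 75-base single-end reads, per the labels' protocols, made by either of a pair of library methods; which library had which is not stated. The submitters' processing notes name CASAVA 1.8, kallisto and DESeq2; neither build nor annotation is given in the sources used here. Deposited by the authors were a table of normalised counts, a signal that is not whole reads, and a batch-corrected table of log2-like values, a score of unstated scale used in 1 alternative. Of the low values above 0 in the 6 libraries, 54.5 to 57.9% were whole multiples of a step, so reads were not recovered and depth is approximate. Values of different libraries differed in every pair (0 pairs identical).

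The filter kept 14668 of 23995 genes, those reaching 10 in 3 or more libraries. limma 3.58.1 in R 4.3.3 was fitted to log2(value + 1) of all 27 libraries with a term for each group and for the library number series, variance trend, 18 residual degrees of freedom and two-sided Benjamini-Hochberg adjusted p of 0.05; fold changes are on that scale, which understates those of low genes, and ± after a log2 value is a standard error. Fits were tested on simulated data. Tables were handled in Python 3.11.15 with pandas 2.3.3. Alternatives changed the pseudocount, filter, scaling, libraries, series term, weights, trend, threshold and table. Positions are from GENCODE M21 on GRCm38, matched for 23950 of 23995 identifiers; promoters are from RefSeq on GRCm38.p6.

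The genes and the 46 gene lists were chosen with earlier results of these data known, and no list was tested as a set. Named by rule were the 16 highest and 14 lowest called changes with non-overlapping groups, a higher group's mean of 100 or more and a symbol other than a gene model number; likewise the 8 highest and 8 lowest genotype differences and the 5 highest and 5 lowest of each pair of stimuli; a fixed panel of mediators and markers; per list, up to 3 called members with the largest change and up to 2 against the list's median; and the 8 most abundant genes after stimulation. Other list members were named after their values were seen. Values of some single genes are not reported here.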

Additional observations from a re-analysis of the deposited data

Results flagged for a closer look

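For 29 of 40 genes examined for it, the response to LPS with interferon-γ differed between CB2-/- and wild-type microglia by the test of the difference itself (limma, adjusted over all 14668 genes, 12.3% of which passed). Of the 40, 16 were chosen because their difference was among the 8 highest or 8 lowest, so their passing is no separate support. Of the other 24, from the panel of mediators and markers, 13 passed. That panel was chosen with earlier results of these data known, so its count is no separate support either. The values below are CB2-/- response minus wild-type response on the log2 scale. For each of them genotype and library series cannot be told apart.

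Among genes of inflammation the difference was -8.93 for Nos2, -7.62 for Ccl7, -6.96 for Ccl2, -6.80 for Mmp13, -5.33 for Il6, -4.46 for Cxcl10, -3.41 for Acod1, -3.29 for Il12b and -3.16 for Tnf. It was -4.16 for the feedback inhibitor Socs1, -3.46 for Gbp2, -3.03 for H2-Ab1, -2.94 for Cd274, -2.19 for Cd40 and -0.84 for Ccl5. Pdpn (-7.01), Il12rb1 (-6.32), AA467197 (-5.93) and Upp1 (-5.92) complete the negative differences. In unstimulated wild-type replicates 1 to 3 Cd274 stood at 257, 262 and 352 and Gbp2 at 53.5, 159 and 150. Replicates 4 to 6 had 1059, 825 and 768 of Cd274 and 142, 98.2 and 112 of Gbp2. Stimulated wild type had 17924, 19102 and 17512 of Cd274 and 37899, 40269 and 42841 of Gbp2. Calls lost without the series term were those of Nos2, Il12b, H2-Ab1 and Capn3.

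Positive differences were those of Capn3 (4.24), Il4i1 (4.15), Col27a1 (4.03), Abhd15 (3.99), Pxdc1 (3.96), Tmem119 (3.63), Tmem176b (3.60), Csad (3.53), Cnr2 (2.54) and Cx3cr1 (1.61). Cx3cr1 fell from 7929, 7859 and 7869 to 224, 245 and 262 in wild type. In CB2-/- cells it fell less, from 1655, 1699 and 1930 to 185, 165 and 148, and so ended lower. Unstimulated wild-type replicates 4 to 6 had 3358, 5709 and 5558 of it. Calls lost under equal sums were those of Capn3, Cnr2, Cd40 and Ccl5, and Cd40 also lost its call without unstimulated wild-type replicate 2 (-1.85, adjusted p = 0.0537).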

How the results depend on the processing

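No called change of a gene named by rule turned direction under any alternative, in the comparisons where that gene was followed. Other list members, named after their values were seen, were not followed, here or in the counts of lost calls below. The medians of the complement, endocannabinoid, iron, purinergic, metalloproteinase, cell cycle, reference gene, astrocyte, neuronal and endothelial lists changed sign under at least 1 scaling or library alternative. Leaving out 1 compared library gave 2788 to 2905 genes called after LPS and interferon-γ, 1516 to 1618 higher and 1270 to 1334 lower. It gave 1434 to 1923 for the difference between genotypes, 1299 to 1497 against PolyI:C and 1103 to 1156 against CpG. Without the second PolyI:C library, which is not in those comparisons, 3469 were called after LPS and interferon-γ and 1512 against CpG. With equal sums 867 genes were higher, and 545, 726 and 971 differed between genotypes, from PolyI:C and from CpG, in that order here and in what follows; with equal sums without Gm19220, Gm26822 and Grip2, added after seeing the data, 2643 were lower. The main count at equal sums was 2648, 45.2% of called genes were higher under quantile scaling, and the cause of these shifts was not tested. Fitting only the 12 CB2-/- libraries gave 3026 (PolyI:C) and 2503 (CpG), and the 6 libraries alone 4910 in the main comparison. Library weights gave 5603 (3005 higher, 2598 lower), 4453, 2741 and 3723. A test against a log2 change of 1 gave 636 (436 and 200), 145, 121 and 206. The authors' batch-corrected table gave 2924, 2772 and 2347 for the last 3 comparisons. Leaving out the 3 of the 6 main libraries with over 10% in Gm19220, Gm26822 and Grip2, also added after seeing the data, gave 1458 (855 and 603), 724, 565 and 561, and leaving out all 6 of the 27 gave 1510 (886 and 624), 741, 492 and 585. Both keep 1 stimulated CB2-/- library, whose error comes from the other groups. These settings lost 48 and 49 calls of named genes in the main comparison, against 10 under equal sums, 10 under quantile scaling and 11 without the series term. Share of called genes higher for the genotype difference was 51.9% under equal sums and 44.8% under quantile scaling. No paired analysis was possible because the labels give no replicate numbers. Low genes are limited by depth of about 5810000 to 13500000 reads.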
